A study of Homo sapiens with 7 samples.

Results

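The sites described here are the peaks of SETD7 that coincided with a FOXA1 peak in every FOXA1 list of the study. They were chosen by the overlap of called peaks, so the choice rests on the measured signal of each list. A SETD7 peak on chromosomes 1 to 22 or X was a member when it overlapped, by 1 bp or more, a peak of each of the 6 FOXA1 lists. Of 25363 SETD7 peaks, 319 did so, a share of 1.26% (95% Wilson interval 1.13 to 1.40). SETD7 had been mapped by chromatin immunoprecipitation and sequencing in 22Rv1 cells (CWR22-Rv1 in the labels) given vehicle. FOXA1 had been mapped in 22Rv1 cells given vehicle, in 22Rv1 cells carrying the control hairpin shCTL (shNTC in the series design) and in 22Rv1 cells carrying shSETD7, a hairpin against SETD7. It had also been mapped in LNCaP cells after 4 h with DMSO, with the LSD1 inhibitor GSK2879552, or with GSK2879552 and the SETD7 inhibitor PFI-2 together. LSD1 is a lysine demethylase. The combination is taken from the sample's title, since its treatment label leaves PFI-2 ambiguous. Both lines are established human prostate cancer lines, and the depletion of SETD7 in the shSETD7 cells was not analysed here.

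SETD7 is a lysine methyltransferase that acts on histone H3 and on non-histone proteins. FOXA1 is a forkhead transcription factor that binds nucleosomal DNA and opens enhancers used by the androgen receptor in prostate cells. Centromeres and the bands around them are built from tandem satellite repeats, of which a genome assembly represents only some copies. Reads from many copies can therefore pile up on a few assembled stretches in sequencing experiments of any target, which makes such stretches recurrent in peak lists whether or not the protein is there.

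Each group had 1 library and 1 peak list, so no spread between replicates and no test between conditions could be had. Intervals cover counting error only, and depth is unknown because peak lists carry no read totals. On chromosomes 1 to 22 and X the FOXA1 lists held between 63682 peaks (22Rv1 shSETD7) and 83633 peaks (22Rv1 shCTL). The score of a peak is the authors' own value, whose definition is not given. It is therefore read below as a percentile within its own list, with 100 as the highest, and percentiles from lists of different lengths show no change between conditions. The vehicle FOXA1 list has siNTC in its peak names although no label gives that term, so it is called vehicle only by its label.

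The 319 sites were a mixture in position and in SETD7 score. Of these, 92 lay within 2 Mb of an annotated hg19 centromere band, which is 28.8% (24.1 to 34.0). Over all SETD7 peaks the share was 6.89%, and the same stretches make up 6.43% of the genome's length. A further 11 sites, or 3.45% (1.94 to 6.07), lay within 2 Mb of a chromosome end, against 2.55% of all SETD7 peaks. The remaining 216 sites, on 22 chromosomes, were interior to both limits. SETD7 scores at or above the 90th percentile of the SETD7 list, a score of 59 or more, were held by 158 sites, or 49.5% (44.1 to 55.0). Of all SETD7 peaks 9.23% stood that high, because tied scores are not split.

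The share of SETD7 peaks near a centromere was 4.99% for the 20633 peaks that met no FOXA1 list, 11.4% for the 2791 that met 1 list and 30.7% for the 189 that met 5. The intervals of peaks in 4, 5 and 6 lists overlapped, so on this measure the 319 sites were close to peaks found in nearly every list. The share with a SETD7 score at percentile 90 or above ran from 4.83% with no FOXA1 list to 48.1% with 5 lists. It did not climb at every step, being 40.2% with 2 lists and 28.7% with 3. The median width was 314 bp without FOXA1, 467 bp with 5 lists and 506 bp with 6. A wider peak has more chance to overlap by 1 bp, so the rule itself favoured wide peaks. FOXA1 without SETD7 gave a different picture: among 14019 vehicle FOXA1 peaks that met all the other FOXA1 lists and no SETD7 peak, 2.89% (2.62 to 3.18) were near a centromere. Those 14019 peaks serve below as the comparison set of FOXA1 sites without SETD7.

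**Figure D1:**
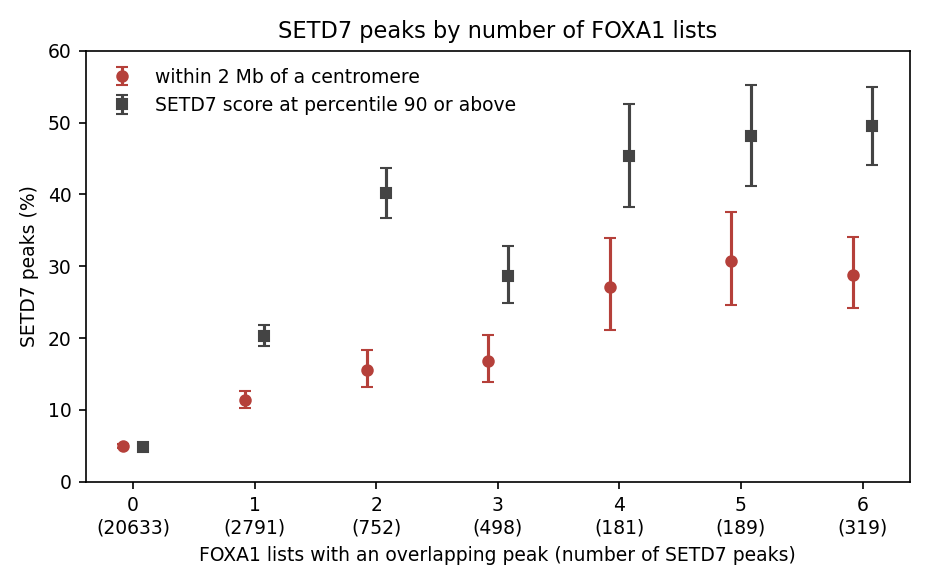
The percentage of SETD7 peaks (vertical axis, with 95% Wilson intervals) that lay within 2 Mb of a centromere (red circles) or had a SETD7 score at percentile 90 or above (dark squares), by the number of FOXA1 lists with an overlapping peak (horizontal axis, number of peaks in brackets). Both shares were lowest with no list, at 4.99% and 4.83%, and the intervals for 4, 5 and 6 lists overlap.

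Position and SETD7 score went together. Of the 92 sites near a centromere, 79 had a score at percentile 90 or above and 64 stood in the highest 1% of the list. Their median score was 1495. Of the 216 interior sites, 70 stood that high, and the 146 others had a median score of 25. Near chromosome ends 9 of 11 sites did, with a median score of 289. Over all SETD7 peaks, 594 of 1748 near a centromere and 1617 of 22969 interior ones were at percentile 90 or above. Near a chromosome end 130 of 646 were. The link was therefore present in the whole SETD7 list. By group, 44 of the centromeric sites lay inside the band itself, 30 lay outside it but within 0.5 Mb, and 18 lay from 0.5 to 2 Mb away. They were spread over 17 chromosomes.

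**Figure D2:**
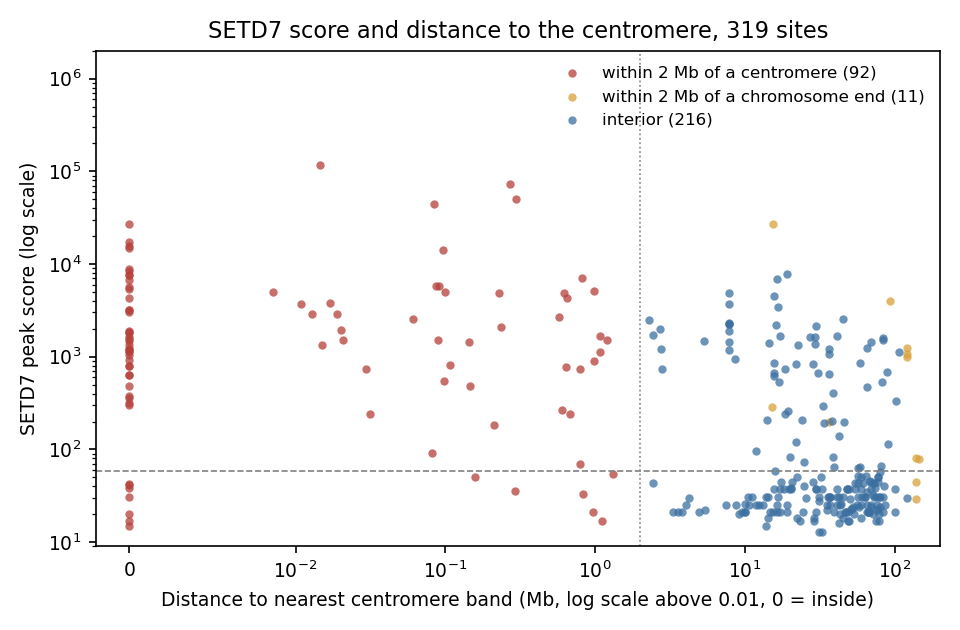
Each point is 1 of the 319 sites, with the distance to the nearest centromere band in Mb on the horizontal axis (logarithmic above 0.01 Mb, 0 for inside) and the authors' SETD7 score on a logarithmic vertical axis. The dotted line marks 2 Mb and the dashed line the border at percentile 90. Of the 92 red points near a centromere 79 lie above the dashed line, and of the 216 blue interior points 146 lie below it.

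The sites with high SETD7 scores differed from those with low scores in place, width and chromosome. Among the 158 at percentile 90 or above, 50% (42.3 to 57.7) were near a centromere. Of all 2341 SETD7 peaks at or above that percentile 25.4% (23.7 to 27.2) were. Of the 997 among them with no FOXA1 peak 14.8% (12.8 to 17.2) were. These sets shared only the cut and were not matched in score, with median SETD7 scores of 1336.5, 96 and 74. Among the 161 lower-scoring sites 8.07% (4.78 to 13.3) were near a centromere, beside 6.89% of all SETD7 peaks. The split at percentile 90 was chosen with these values known and is a description.

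Width followed the same division. The 158 high-scoring sites had a median width of 848.5 bp (676 to 968). It was 418 bp for all SETD7 peaks at or above percentile 90 and 346 bp for those of them without FOXA1. Both of these sets had lower median scores, and wide peaks meet the 1 bp overlap rule more easily. The 161 others had a median width of 386 bp (368 to 413). Near a centromere the median was 931 bp (777 to 1224) and widths ran from 256 to 4277 bp. Of 363 SETD7 peaks at least 1000 bp wide, 149 lay near a centromere. Members made up 66 of the 363, and 42 of these 66 lay near a centromere. The widest were chr10:42390703-42394979 (10q11.21, 4277 bp), chr18:18516112-18520317 (18q11.1, 4206 bp) and chr2:92306687-92310623 (2p11.1, 3937 bp). All of these were near a centromere, with SETD7 scores of 5786, 15707 and 1140. The narrowest were interior: chr7:66644131-66644372 (242 bp, score 21), chr15:35045446-35045688 (243 bp, score 31) and chr8:127314788-127315031 (244 bp, score 31).

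**Figure D3:**
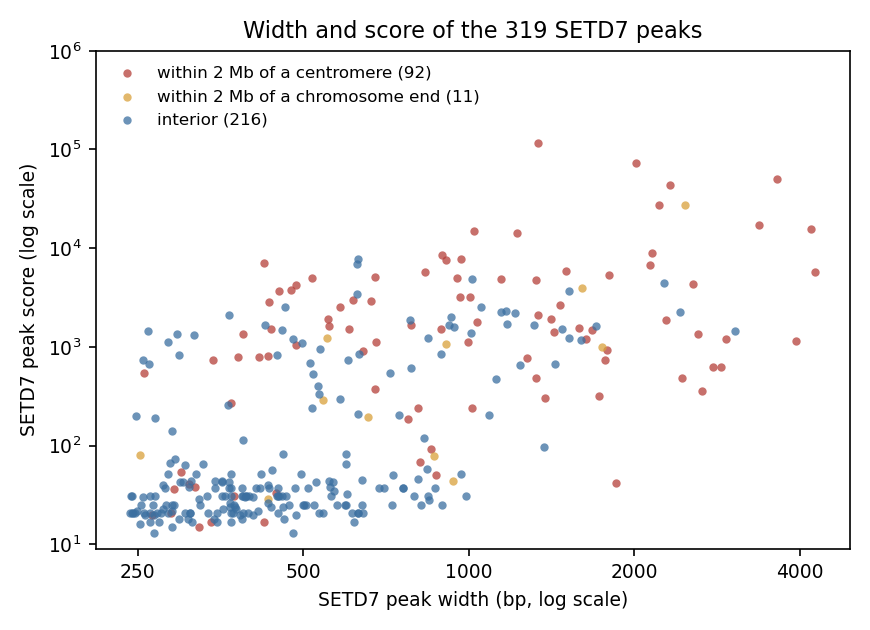
SETD7 peak width in bp (horizontal axis, logarithmic) against the authors' SETD7 score (vertical axis, logarithmic) for the 319 sites, coloured by position. Most blue interior points form a band at scores below 59, while the red points near a centromere reach 4277 bp in width and a score of 116716.

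Low-scoring sites lay mostly on chromosomes 1, 3, 7, 8 and 12, a set chosen after the values were seen. These carried 119 of the 161 lower-scoring sites, or 73.9% (66.6 to 80.1), and 36 of the 158 high-scoring sites, or 22.8% (16.9 to 29.9). These chromosomes held 70.2% of all SETD7 peaks and 35.7% of the FOXA1 sites without SETD7, so the share for the lower-scoring sites was near that of the whole SETD7 list. With these chromosomes left out, 44.5% of the remaining sites were near a centromere, against 15.3% of the remaining SETD7 peaks.

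The highest SETD7 scores of the study fell on these sites. Of 166 SETD7 peaks with a score of 1000 or more, 94 met all 6 FOXA1 lists and 1 met none. Of the 94, 56 were near a centromere, and how many of all 166 were was not counted. Among the 10 members with the highest SETD7 score, 9 lay near a centromere and the other near a chromosome end.

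The highest was chr1:121484090-121485424 in 1p11.2, 0.0146 Mb from the centromere band. Its SETD7 score was 116716, the maximum of the list. Its FOXA1 scores in 22Rv1 were 1531 with vehicle, 84065 with shCTL and 21747 with shSETD7, and in LNCaP 2169 with DMSO, 1653 with GSK2879552 and 1992 with the combination. It stood above percentile 99 in all 7 lists, and its score in the shCTL list was also that list's maximum. The next was chr7:61968575-61970591 in 7q11.21, with a SETD7 score of 73269. Its FOXA1 scores were 1163, 28630 and 16329 in 22Rv1 with vehicle, shCTL and shSETD7, and 1256, 1147 and 1362 in LNCaP with DMSO, GSK2879552 and the combination. It was likewise high in every list.

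The other centromeric sites varied in their LNCaP ranks. The site chr10:42384252-42386578 in 10q11.21 had a SETD7 score of 43885. Its FOXA1 scores were 530, 22142 and 1962 in 22Rv1 (vehicle, shCTL, shSETD7) and 516, 408 and 524 in LNCaP (DMSO, GSK2879552, combination). It was among the highest FOXA1 peaks of shCTL and ranked lower in the LNCaP lists. The site chr10:42596799-42600431, in the same cytoband, had a SETD7 score of 50338. The remaining ones in descending SETD7 score were chr19:27731896-27734115 (27354), chr6:58776270-58779643 (17166), chr18:18516112-18520317 (15707), chr2:92269013-92270034 (14962) and chr10:42395805-42397028 (14275). Over these 10 sites the percentiles in the LNCaP lists ran from 63.8 to 99.6.

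The member near a chromosome end among them was chr18:107398-109873 in 18p11.32, 0.107 Mb from the end of the assembly. Its SETD7 score was 27193, with FOXA1 scores of 929, 5597 and 9767 in 22Rv1 (vehicle, shCTL, shSETD7) and 575, 857 and 733 in LNCaP (DMSO, GSK2879552, combination). It ranked higher in the 22Rv1 lists than in the LNCaP lists. Next among the 11 sites near an end was chr10:135499753-135501360, with a SETD7 score of 3990. The following ones lay close together on chromosome 1, at chr1:568228-568779, chr1:569301-570210 and chr1:566216-567965, with SETD7 scores of 1234, 1067 and 998. That stretch of the assembly is known to hold a nuclear copy of mitochondrial DNA. FOXA1 scores at chr1:568228-568779 were 224, 66 and 191 in 22Rv1 (vehicle, shCTL, shSETD7) and 106, 308 and 224 in LNCaP (DMSO, GSK2879552, combination). They lay above the list medians of 85 with vehicle, 82 with shSETD7 and 213 with GSK2879552. They lay below the medians of 136 with shCTL, 215 with DMSO and 237 with the combination. In the vehicle, shCTL and combination lists the FOXA1 peak was the same one as at chr1:566216-567965.

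Some interior sites with high scores lay by heterochromatin bands that adjoin the centromere bands. Of the 70, 15 lay within 2 Mb of a block made of a centromere band and its adjoining heterochromatin bands, and 55 lay farther away. Heterochromatin elsewhere was not counted. Of all 2341 SETD7 peaks at percentile 90 or above, 727 lay within 2 Mb of such a block and 594 within 2 Mb of the centromere band itself. For the 158 high-scoring sites these counts were 94 and 79. The highest interior site was chr9:69710704-69711333 in 9q21.11, with a SETD7 score of 7826, and it lay 3.81 Mb from such a block. Its FOXA1 scores were 2004, 6358 and 1050 in 22Rv1 (vehicle, shCTL, shSETD7) and 1809, 2041 and 1875 in LNCaP (DMSO, GSK2879552, combination). It stood at percentile 94.4 with shSETD7 and above 99 in 4 of the other FOXA1 lists, with 98.8 in the combination list. Sites at chr9:66971010-66971636 and chr9:67320296-67320922 had SETD7 scores of 6885 and 3457. The SETD7 peaks at these chromosome 9 sites were 630, 627 and 627 bp wide, so they were nearly equal in width.

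The site chr16:46404930-46405941 in 16q11.2 behaved differently. Its SETD7 score was 4880, with FOXA1 scores of 114, 409 and 1122 in 22Rv1 (vehicle, shCTL, shSETD7) and 67, 119 and 59 in LNCaP (DMSO, GSK2879552, combination). The LNCaP values were at percentiles 0.830, 16.5 and 0.11 of their lists, so this site met every FOXA1 list while being among the weakest peaks of some. The remaining ones of the 10 highest interior sites were chr4:68264357-68266622 (4476), chr16:46406242-46407764 (3699), chrX:108297366-108297829 (2540), chr9:44992467-44993518 (2507), chr16:46432281-46433449 (2325) and chr16:46422557-46424976 (2281).

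**Figure D4:**
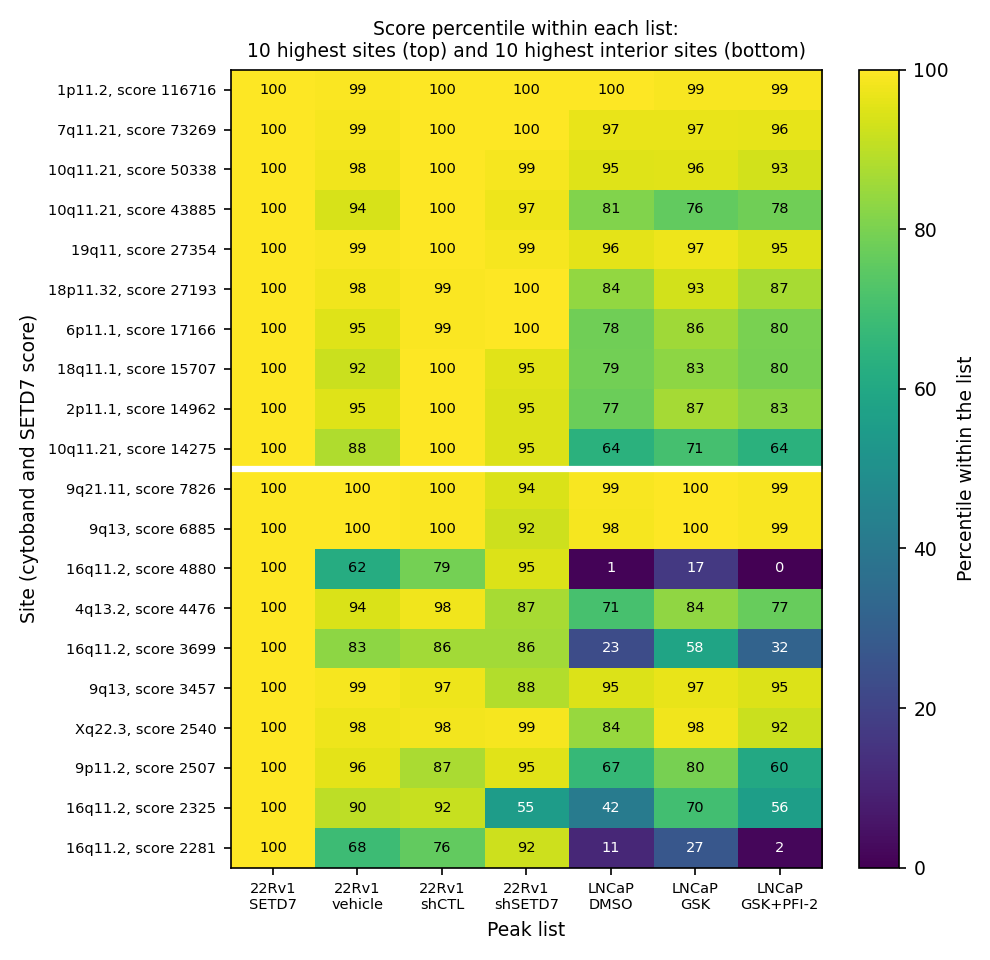
Score percentile within each of the 7 peak lists (columns, colour and printed value, 100 as the highest, rounded) for the 10 sites of highest SETD7 score (upper block) and the 10 interior sites of highest SETD7 score (lower block), named by cytoband and SETD7 score. The sites at 16q11.2 with scores of 4880 and 2281 are the darkest in the LNCaP columns, and those at 1p11.2, 7q11.21 and 9q21.11 are bright throughout.

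Some sites were neighbours. Joined when at most 100 kb apart, the 319 peaks formed 244 groups, of which 210 were single peaks. The 34 groups of 2 or more held 109 peaks, 70 of them near a centromere and 32 interior. The largest had 9 peaks at chr10:42360552-42408622, a span of 48.071 kb in 10q11.21, with SETD7 scores from 543 to 43885. Groups of 8 lay at chr11:51568509-51591361 in 11p11.12 (scores 737 to 5000) and at chr16:46386307-46435557 in 16q11.2 (scores 1172 to 4880). The latter counts as interior because its heterochromatin band adjoins the centromere band but is not part of it. Sites near a centromere had a median of 12 other SETD7 peaks within 100 kb, and interior sites a median of 3. Neither the groups nor these medians were counted over all SETD7 peaks, so they do not mark the sites out. Joined within 10 kb, the 319 sites became 273, and all 25363 SETD7 peaks became 18839.

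FOXA1 ranked higher in the 22Rv1 lists than in the LNCaP lists at most of the 319 sites. The median FOXA1 percentile was 86.8 with vehicle, 88.1 with shCTL and 90.5 with shSETD7 in 22Rv1. In LNCaP it was 60.2 with DMSO, 66.6 with GSK2879552 and 61.2 with the combination. The FOXA1 sites without SETD7 had medians of 80.8, 85.4 and 82.7 in 22Rv1 and 76.6, 74.9 and 77.8 in LNCaP, in the same order. All 3 percentiles of 22Rv1 lay above all 3 of LNCaP at 193 sites, or 60.5% (55.0 to 65.7), against 32.1% of the FOXA1 sites without SETD7. The reverse held at 17 sites, against 15.7%. SETD7 was mapped in 22Rv1, so membership required a peak in that line's SETD7 list and none for SETD7 in LNCaP.

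The high-scoring and low-scoring sites were close in FOXA1 rank although they differed in SETD7 score. The median over sites of the middle FOXA1 percentile was 74.8 for the 158 and 72.9 for the 161, and 78.0 for FOXA1 sites without SETD7. All 6 FOXA1 percentiles were 50 or above at 146 sites (45.8%), against 49.5% of the FOXA1 sites without SETD7. They were 90 or above at 22 sites (6.90%), against 8.37%. In these measures the 319 sites were near the comparison set.

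The 2 sets of sites parted in single lists. The shSETD7 percentile exceeded the shCTL percentile at 209 of the 319 sites, or 65.5%, against 50.9% of the FOXA1 sites without SETD7. Among low-scoring sites the share was 80.7% (74.0 to 86.1), among high-scoring sites 50%, near a centromere 34.8% and at interior sites 77.8%. High-scoring sites had 27.8% at the 79 near a centromere and 70% at the 70 interior ones. Low-scoring sites had 76.9% at the 13 near a centromere and 81.5% at the 146 interior ones. FOXA1 sites without SETD7 had 55.6% (50.7 to 60.3) near a centromere and 50.2% at interior sites. The GSK2879552 percentile was the highest of the 3 LNCaP lists at 185 sites, or 58.0%, against 31.0% of the FOXA1 sites without SETD7. Here the high-scoring sites had 75.3% (68.0 to 81.4) and the low-scoring sites 41.0% (33.7 to 48.7). Both comparisons are between the ranks of single libraries, and whether libraries of 1 condition would differ as much was not tested.

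**Figure D5:**
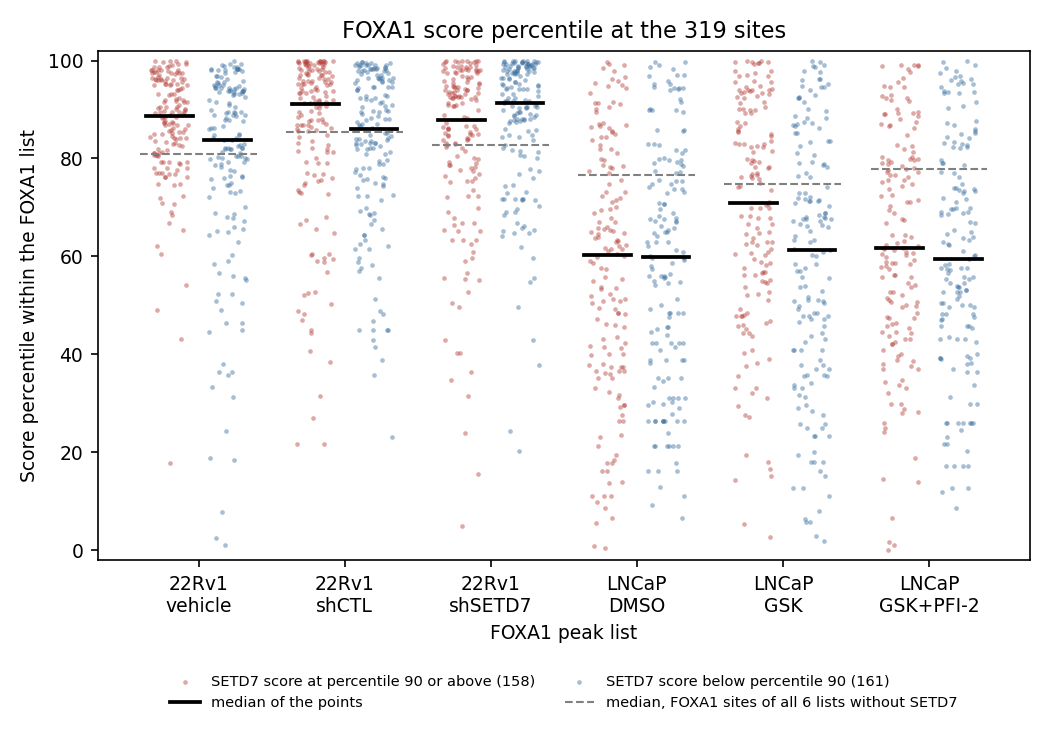
FOXA1 score percentile within each FOXA1 list (vertical axis) at the 319 sites (points), for the 158 with a SETD7 score at percentile 90 or above (red) and the 161 others (blue), with black bars as medians. The dashed lines are medians of FOXA1 sites of all 6 lists without SETD7, and the LNCaP medians of the 319 sites, 60.2, 66.6 and 61.2 over both colours, lie below them.

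SETD7 and FOXA1 scores were ranked more alike near centromeres than at interior sites, as a description. Over the 92 sites near a centromere, Spearman's rho between SETD7 and FOXA1 scores was 0.47 with vehicle, 0.70 with shCTL and 0.41 with shSETD7 in 22Rv1, and 0.34, 0.41 and 0.35 with DMSO, GSK2879552 and the combination in LNCaP. Over the 216 interior sites it was 0.097, 0.025 and -0.057 in 22Rv1, and -0.0043, 0.22 and 0.058 in LNCaP. Over the 70 high-scoring interior sites it was 0.20, 0.064 and -0.16 in 22Rv1, and 0.19, 0.37 and 0.23 in LNCaP. Between FOXA1 lists of different lines it was 0.46 to 0.75 near a centromere, 0.078 to 0.45 at interior sites and 0.15 to 0.46 at FOXA1 sites without SETD7. Within a line the ranges were 0.53 to 0.94, 0.59 to 0.90 and 0.46 to 0.95. Among FOXA1 sites without SETD7, the range between lines was 0.099 to 0.46 near a centromere and 0.15 to 0.47 at interior sites. That set thus had no higher range near centromeres. At the 70 high-scoring interior sites the range between lines was -0.019 to 0.61. Centromeric and interior sites were not matched in SETD7 score, which ran from 15 to 116716 and from 13 to 7826. Position was thus not separated from the range of scores. These coefficients are across sites, which share libraries and are not independent replicates.

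The peaks also met in different ways. A single FOXA1 peak lay on the SETD7 peak in each list at 258 sites (80.9%): at 198 of 216 interior sites and at 51 of 92 near a centromere. Reciprocal overlap of at least 50% in all 6 lists was found at 87 sites (27.3%), 52 high-scoring and 35 low-scoring. The distance from the SETD7 peak centre to the nearest centre of an overlapping FOXA1 peak was also taken. In the shCTL list this distance had a median of 81.8 bp at high-scoring sites and 168.5 bp at low-scoring sites. In the LNCaP DMSO list it was 127.3 and 176.5 bp. The median distance was thus larger at the lower-scoring sites, whose SETD7 peaks were narrower. A single FOXA1 peak in each list was found at 99 of 158 high-scoring and 159 of 161 low-scoring sites. High-scoring sites thus more often had several peaks from which the nearest was taken. At 177 sites every list overlapped by 200 bp or more, and at 30 some list overlapped by less than 50 bp.

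Just inside the overlap rule were chr11:89051296-89051879 (SETD7 score 297) and chr8:38889335-38889739 (score 30), each with 2 bp shared with the LNCaP GSK2879552 list. Just outside were chr2:184408224-184408510 (score 21), 7 bp short of a peak of that list, and chr1:190421677-190422015 (score 25), 13 bp short of a vehicle FOXA1 peak.

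A few interior sites ranked high for both proteins, and they are named here after their values were seen. Only 4 of the 319 had percentiles of 95 or more in the SETD7 list and in all 6 FOXA1 lists. Besides the sites at 1p11.2 and 7q11.21 these were chr11:85195011-85195304 in 11q14.1 (294 bp) and chr8:70602301-70602616 in 8q13.3 (316 bp). The first had a SETD7 score of 1361, with FOXA1 scores of 2226, 16650 and 8578 in 22Rv1 (vehicle, shCTL, shSETD7) and 1896, 2238 and 2010 in LNCaP (DMSO, GSK2879552, combination). The second had a SETD7 score of 1323, with FOXA1 scores of 1421, 3006 and 2716 in 22Rv1 and 1199, 2125 and 1547 in LNCaP, in the same order. Both were narrow peaks on chromosome arms, while the 2 centromeric sites were 1335 and 2017 bp wide. At the first, the FOXA1 peaks of shCTL and shSETD7 had the same bounds as the SETD7 peak, 294 bp apart. At the second, the FOXA1 peaks of these lists were 330 bp wide, with centres 6 and 7 bp from the SETD7 centre. Whether such shared bounds come from binding or from an artefact was not tested.

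Other sites were high for FOXA1 and low for SETD7. Among the 161 low-scoring sites, 9 had FOXA1 percentiles of 90 or more in all 6 lists, and 8 of these were interior. At chr3:39093609-39093922 in 3p22.2 the SETD7 score was 17, at percentile 8.79 of its list. FOXA1 scores there were 2825, 6433 and 15220 in 22Rv1 (vehicle, shCTL, shSETD7) and 2189, 2302 and 2393 in LNCaP (DMSO, GSK2879552, combination), all at percentile 99.6 or higher. This site, also chosen after its values were seen, was near the top of every FOXA1 list and near the bottom of the SETD7 list. Whether any of the 319 sites lie on repeats was not tested, since neither an input library nor repeat annotation was used here.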

How the data were processed

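FOXA1 and SETD7 peak lists from 7 ChIP-seq libraries of formaldehyde-crosslinked cells were used, with 1 library in each group as given by the sample titles. The submitters' processing notes name MACS2 2.1.4, SAMtools 1.9, BWA 0.7.17-r1188 and FastQC 0.11.9, and build hg19. What each tool did, the peak thresholds and the input controls were not given in the sources used here. Each peak of the deposited lists has 1 whole-number score, the authors' own value, of undefined meaning. Lists were made per sample, with unknown depth. Lowest scores were 13 in 22Rv1 and 40 to 48 in LNCaP, so floors differed.

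The members and lists were chosen with earlier results of these data known. Members, positions, percentiles (with tied scores sharing their middle rank) and overlaps were computed with Python 3.11.15 (pandas 2.3.3, numpy 2.4.6, matplotlib 3.10.9, scipy 1.17.1). Where several FOXA1 peaks overlapped a site, the highest-scoring gave the score and percentile. The centre distance was the least over those peaks and the overlap length the largest. Reciprocal overlap counted when any of them met it. Centromere bands came from the hg19 band table in circlize 0.4.16 and chromosome lengths from GenomeInfoDb 1.38.1. Bedtools 2.31.1 gave the same 319 members, and 200 of 200 planted overlaps among 2000 simulated peaks were recovered. Shares have 95% Wilson intervals and medians have order-statistic intervals.

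Named sites were the 10 members and 10 interior members of highest SETD7 score, the 3 widest and 3 narrowest, the 5 highest near a chromosome end, 2 on each side of the overlap limit, and the densest group within 100 kb. Any others are said to be chosen after their values were seen. Alternatives were other overlap rules, higher-scoring or equal-length lists, each FOXA1 list left out, merged members, other centromere distances and bands, and 5 chromosomes left out. An hg19 sequence or gene annotation was not used here, so planned sequence and gene descriptions were not run.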

Additional observations from a re-analysis of the deposited data

How the results depend on the processing

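The 4 results were recomputed under 16 alternatives, 3 of which apply to the centromeric share only. Of the 55 values this gave, 32 stayed within the counting interval of the value reported and 23 moved beyond it. The share of SETD7 peaks in all 6 FOXA1 lists was 0.343% with reciprocal overlap of 50%, 0.619% with midpoints within 200 bp, 2.81% with a gap of up to 1 kb, 0.905% with the higher-scoring 50% of each list, 1.11% with lists of equal length, 1.45% after merging within 10 kb and 2.17% without chromosomes 1, 3, 7, 8 and 12, an alternative chosen after seeing the data. The share near a centromere was 18.8% with the 1 kb gap, 42.2% with the higher-scoring 50%, 21.2% after merging (4.70% of all SETD7 peaks merged likewise) and 44.5% without the 5 chromosomes. Median width was 426, 450, 392, 635 and 676 bp with reciprocal overlap, midpoints, the 1 kb gap, the higher-scoring 50% and without the 5 chromosomes. The median SETD7 percentile was 99.2 with reciprocal overlap, 71.3 with the gap, 99.4 with the higher-scoring 50%, 77.6 after merging and 99.3 without the 5 chromosomes. Leaving out 1 FOXA1 list at a time gave shares of 1.32% to 1.46%, centromeric shares of 27.1% to 34.0%, widths of 486 to 521 bp and percentiles of 82.8 to 96.8. Stricter overlap lowers and looser overlap raises the first share by construction. The cause of the other moves was not tested. With 1 Mb, with 5 Mb and with heterochromatin bands added, the centromeric share was 27.3%, 32.6% and 33.9%, against 5.34%, 10.7% and 8.52% of all SETD7 peaks. No paired analysis was possible because each group has 1 library. Depth is unknown, so a missing peak cannot be told apart from a shallow library.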

Other observations

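The 189 SETD7 peaks that met 5 of the 6 FOXA1 lists were not missing the same list. The absent list was shSETD7 for 52 peaks, LNCaP DMSO for 43, the combination for 36, vehicle for 22, GSK2879552 for 21 and shCTL for 15. Of all 25363 SETD7 peaks, 15.4% met a peak of the shSETD7 list, 7.68% of the shCTL list and 5.63% of the vehicle list, and 2.53%, 2.99% and 2.72% met one of LNCaP DMSO, GSK2879552 and the combination.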
